A study of Mus musculus with 6 samples.

Results

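The AP-1 family in these data consisted of 7 genes, chosen by name from the list of Fos and Jun family members. They were the 4 Fos genes (Fos, Fosb, Fosl1 and Fosl2) and the 3 Jun genes (Jun, Junb and Jund), out of 43432 genes listed and 22515 genes with a count in any library. All 7 had counts and all 7 were tested. After 2 h of depolarization Fos, Fosb, Fosl2 and Junb were higher than in silenced neurons, and no family member was lower. After 6 h these genes were still higher than at 0 h, whereas Jun was lower. Fosl1 and Jund passed the test in neither direction at either time.

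AP-1 is a transcription factor built from pairs of basic leucine zipper (bZIP) proteins. Jun proteins can pair with each other or with a Fos protein, whereas Fos proteins bind DNA mainly as partners of Jun proteins. Several of these genes are classical immediate-early genes of neurons: calcium entry and kinase signalling switch on their transcription through CREB, SRF and the ternary complex factors without a need for new protein, and their mRNAs are short-lived. In the brain, Fos is widely used as a mark of recently active neurons.

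To follow the family through depolarization, RNA-seq was compared between cultures of wild-type C57BL/6 cortical neurons exposed to KCl for 0 h, 2 h or 6 h, with 2 libraries in each group and 6 in all. Neurons were taken from E16.5 embryos, with males and females pooled, and were grown for 7 days. All 3 groups, the 0 h group included, were silenced overnight with 1 μM tetrodotoxin, a sodium channel blocker, and 100 μM DL-AP5, an NMDA receptor blocker. The 2 h and 6 h groups were then placed in 55 mM KCl, which depolarizes the membrane of every cell in the dish. The study calls the 2 libraries of a group biological replicates, and the labels do not say which cultures or litters they came from.

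Total expected counts ranged from 25959298 to 28573067 per library. The replicates matched less closely at 2 h than at the other times: the SD across genes of the log2 difference between them was 0.43 at 2 h against 0.25 at 0 h and 0.21 at 6 h. This difference was correlated across 12290 genes with GC content, most strongly at 2 h (Spearman's rho of -0.735). The rho was -0.393 at 0 h and -0.28 at 6 h, and genes are not independent replicates. The culture was checked against lists of cell type markers. The 9 neuron markers summed to 3855 to 3921 TPM (a level per transcript length, scaled to the same total in each library) at 0 h, 3290 to 3466 TPM at 2 h and 3666 to 3818 TPM at 6 h, and none was at 0 in every library. The lower sum at 2 h came with Tubb3: the other 8 summed to 2282 and 2176 TPM before KCl, 2632 and 2302 TPM after 2 h, and 3000 and 3024 TPM after 6 h. The 14 glial, microglial and vascular markers summed to 519 to 577 TPM, 504 to 521 TPM and 447 to 453 TPM at the same times. The highest of the 14 were Slc1a3 at 268 to 323 TPM, Aldh1l1 at 55.1 to 89.1 TPM and Pdgfra at 35.3 to 53.2 TPM over the 6 libraries, so glial RNA was present. Cx3cr1, Csf1r, P2ry12 and Cldn5, markers of microglia and endothelium, were under 1 TPM in all 6 libraries. The part of these shifts in the results was not tested, and in bulk RNA a change in the number of cells of a type and a change in RNA per cell cannot be told apart.

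Before stimulation the family was carried by Fosl2 and Jun. Their TPM values at 0 h were 24.2 and 25.0 for Fosl2 and 14.8 and 16.2 for Jun in the 2 replicates. Fosl1 was at 1.78 and 2.32 TPM, Jund at 1.68 and 2.05 TPM, and Fos at 1.77 and 1.5 TPM. These 3 genes lay close together, with the values of Jund overlapping those of both others, so they could not be ordered beyond their spread. Junb was at 0.16 and 0.43 TPM and Fosb at 0.18 and 0 TPM, again without a gap between them. The order of levels at 0 h was thus Fosl2, then Jun, then Fosl1, Jund and Fos together, then Junb and Fosb together.

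Fos, the founding member of the family, was the member with the highest level per length after stimulation. It lies on chromosome 12 (ENSMUSG00000021250, 85473890 to 85477273, plus strand, GRCm38). Its normalized counts, which are expected counts divided by a size factor per library, were 38.2 and 34.6 before KCl, 6939 and 8222 after 2 h, and 3915 and 3806 after 6 h. The 3 groups did not overlap, and the 2 h libraries were the highest. At 2 h the level was 209-fold that at 0 h (95% interval 157 to 277), which is 7.71 ± 0.21 (SE, n = 2 per group) on the log2 scale, with a DESeq2 adjusted p of 3.119e-298. At 6 h the log2 fold change against 0 h was 6.73 (DESeq2 adjusted p = 4.095e-226). Ranked by TPM among all listed genes of a library, Fos moved from places 12563 and 12823 at 0 h to places 576 and 431 at 2 h.

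Fosb encodes a Fos protein that also exists in a shorter form, ΔFosB, made by alternative splicing. It lies on chromosome 7 (ENSMUSG00000003545, 19302696 to 19310051, minus strand). Its normalized counts were 8.88 and 0 before KCl, 3923 and 4566 after 2 h, and 479.4 and 408.7 after 6 h. No library of one group reached the range of another. The 0 h values rested on 10 expected counts in one library and 0 in the other. The fold at 2 h was 961, with a wide 95% interval of 154 to 5992. The log2 fold change of 9.91 ± 1.35 (SE; DESeq2 adjusted p = 6.115e-12) was at rank 2, counted down from the largest increase. The ranking took in 14668 genes, those whose mean normalized count was 10 or more. Fos was at rank 8. Without replicate 2 of the 0 h group, the library at 0, the log2 fold changes of Fosb were 8.91 at 2 h and 5.65 at 6 h. Without replicate 1 the fitted values were 14.7 and 11.5, against a library with no count, where they are no bound. Against a floor of 3 counts in that library alone, the mean level was at least 1679-fold higher at 2 h and 176-fold higher at 6 h. These bounds hold against that library only. The other 0 h library held 8.88 normalized counts, and the fit over both gave 961-fold at 2 h and 101-fold at 6 h. With the replicate block the log2 fold change at 2 h was 10.5. Only 1 Fosb transcript was in the deposited gene model, so the splice forms were not separated.

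Fosl2, which encodes the Fos-related antigen FRA-2, began from the highest level and rose by the smallest factor of the genes that rose. It lies on chromosome 5 (ENSMUSG00000029135, 32135801 to 32157842, plus strand). Its normalized counts were 1907 and 1948 before KCl, 12439 and 11525 after 2 h, and 7931 and 7868 after 6 h. The groups were well apart, with replicates close to each other at each time. The fold at 2 h was 6.22 (95% interval 5.43 to 7.12; DESeq2 adjusted p = 1.607e-151), and at 6 h it was 4.10 (3.58 to 4.69; DESeq2 adjusted p = 1.208e-89).

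Fosl1 encodes the related protein FRA-1, which is best known from proliferating and invasive cells. It lies on chromosome 19 (ENSMUSG00000024912, 5447547 to 5455946, plus strand). Its normalized counts were 35.5 and 45.5 before KCl, 61.9 and 44.5 after 2 h, and 35.3 and 37.6 after 6 h. The libraries of the 3 times overlapped. The fold at 2 h was 1.31 with a 95% interval of 0.74 to 2.34 (DESeq2 adjusted p = 0.580), so a change of up to about that size was not detectable at this depth. At 6 h the fold was 0.90 (0.50 to 1.63; DESeq2 adjusted p = 0.812).

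Jun, the central partner of the Fos proteins, was the only member with a level at 6 h that passed the test as lower than at 0 h. It is a gene of 1 exon on chromosome 4 (ENSMUSG00000052684, 95049034 to 95052222, minus strand). Its normalized counts were 606.3 and 657.3 before KCl, 631.1 and 733.0 after 2 h, and 257.9 and 261.4 after 6 h. The 0 h and 2 h libraries overlapped, and both 6 h libraries lay under all the others. The fold at 2 h was 1.08 (95% interval 0.87 to 1.34; DESeq2 adjusted p = 0.702), an interval that excluded both a doubling and a halving. At 6 h the log2 fold change against 0 h was -1.28 ± 0.17 (SE; DESeq2 adjusted p = 2.33e-13), a level of 0.41-fold (0.33 to 0.52). Jun shares exon bases with the antisense gene Junos, which had 1 to 7 expected counts per library against 241 to 780 for Jun.

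Junb encodes a Jun protein that often acts against Jun at shared sites. It lies on chromosome 8 (ENSMUSG00000052837, 84974484 to 84978718, minus strand). Its normalized counts were 3.55 and 9.27 before KCl, 196.7 and 276.0 after 2 h, and 43.9 and 62.4 after 6 h. The groups did not overlap, with the 6 h libraries between the other two groups. The fold at 2 h was 36.6 (95% interval 18.2 to 73.5; DESeq2 adjusted p = 4.64e-22), and at 6 h it was 8.22 (4.0 to 16.9; DESeq2 adjusted p = 6.803e-08). The 0 h libraries held 4 and 11 expected counts, and without the second of them the log2 fold change at 2 h was 6.06 in place of 5.19, and that at 6 h was 3.91 in place of 3.04. In GENCODE M21 Junb shares exon bases with Prdx2 on the other strand, but only in a Junb transcript that is not in the deposited table. Prdx2 had 12843 to 16106 expected counts per library, and whether any of its reads reached Junb was not tested.

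Jund encodes the Jun protein known for steady expression in many tissues. It also lies on chromosome 8 (ENSMUSG00000071076, 70698949 to 70700616, plus strand), although the deposited length of 2878 bases is longer than this GENCODE model. Its normalized counts were 61.3 and 74.2 before KCl, 64.9 and 84.8 after 2 h, and 58.9 and 45.2 after 6 h. The 0 h and 2 h libraries overlapped, and both 6 h libraries were the lowest. The log2 fold change was 0.14 ± 0.36 (SE) at 2 h (DESeq2 adjusted p = 0.844) and -0.38 ± 0.37 at 6 h (DESeq2 adjusted p = 0.429). Its sign at 2 h turned with library totals as size factors (-0.022) and after a correction for GC content (-0.085), and that of Jun turned with library totals (-0.055).

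**Figure D1:**
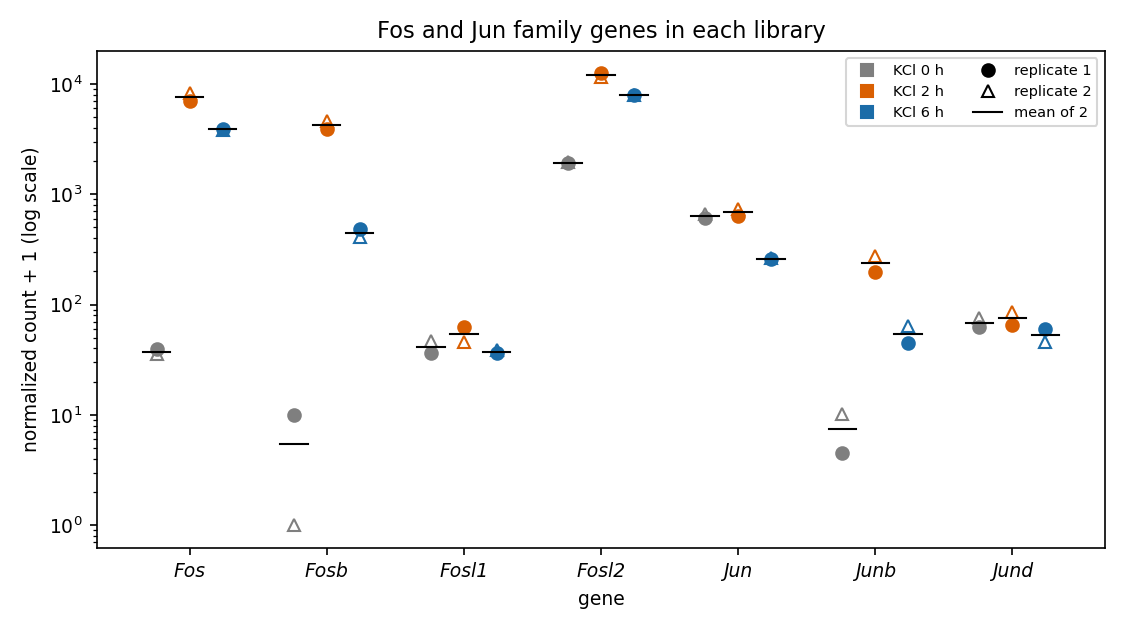
Normalized count plus 1 (log axis) of each family gene (x axis) in each of the 6 libraries. Filled circles are replicate 1, open triangles replicate 2, horizontal lines the mean of the 2 libraries, and colours the hours in KCl. Fos, Fosb, Fosl2 and Junb are highest at 2 h, Jun is lowest at 6 h, and Fosl1 and Jund stay under 100.

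A gene was called when its DESeq2 adjusted p was at most 0.05 and its change was more than 2-fold. By this rule, after 2 h of KCl 4 of the 7 members were higher than before it, beside 3.62% of all 16840 genes with an adjusted p. None was lower, where 5.94% of those genes were. At 6 h against 0 h, 4 members were higher, beside 9.1% of 17277 genes, and 1 was lower, beside 10.2%. The 4 higher members were the same at both times. The comparisons of 2 h and of 6 h share their 0 h libraries, so they are not independent. The same members were called after a correction for GC content.

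To see how the induced levels developed, the 6 h libraries were compared with the 2 h libraries. Of the 7 members 3 were lower at 6 h than at 2 h (Fosb, Jun and Junb), beside 8.02% of 16404 genes, and none was higher, beside 10.1%. Fosb stood at 10.5% of its 2 h level at 6 h, which is -3.26 ± 1.27 on the log2 scale (SE; DESeq2 adjusted p = 0.0250; 95% interval 0.019 to 0.587 as a fold). Its interval is wide although its 2 h and 6 h libraries are far apart; 1 estimate of the spread served all 3 groups, and the 0 h libraries held 10 and 0 counts. With only the 2 h and 6 h libraries in the fit the DESeq2 adjusted p was 3.425e-68 and with edgeR it was 0.000186. With the replicate number as a block it was 0.0606, and without any 1 of the 2 h or 6 h libraries it was 0.215 to 0.308, so the call was lost.

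Junb kept 22.5% of its 2 h level (log2 fold change -2.15 ± 0.38, SE; DESeq2 adjusted p = 1.283e-07). Jun, which had not passed the test at 2 h, fell by 1.39 ± 0.17 on the log2 scale from 2 h to 6 h (DESeq2 adjusted p = 2.067e-15). Fos kept 50.9% (95% interval as a fold 0.42 to 0.61; DESeq2 adjusted p = 1.174e-11) and Fosl2 65.9% (0.58 to 0.75; DESeq2 adjusted p = 7.564e-09). Both passed the p threshold with a change under 2-fold and were therefore not called. For Fos the log2 fold change of -0.97 lay near the limit: it was -1.01 with TMM factors, -1.06 with library totals and -1.08 without replicate 1 of the 2 h group, and was then called. The intervals of Fosb and Junb overlapped each other, whereas that of Junb (0.13 to 0.38) lay under those of Fos and Fosl2. The difference between genes was not tested.

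**Figure D2:**
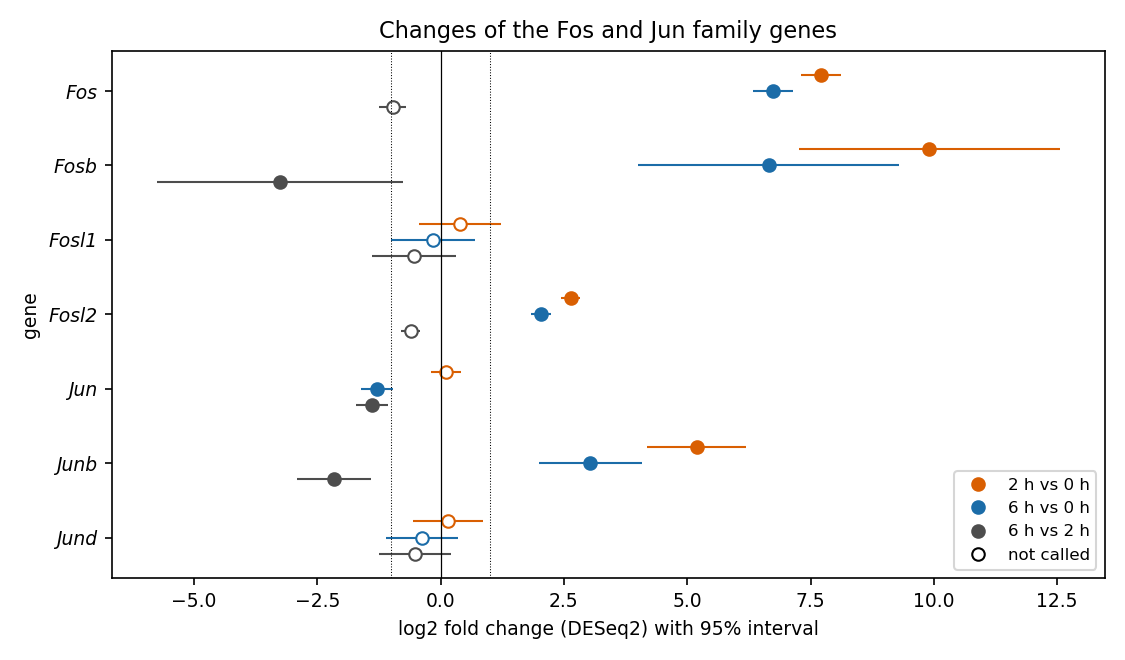
DESeq2 log2 fold change (x axis) of each family gene (y axis) at 2 h (orange) and 6 h (blue) against 0 h, and at 6 h against 2 h (grey). Points are estimates from 2 libraries per group, bars are 95% intervals, filled points were called and open points were not, and dotted lines mark a 2-fold change. Fosb has the widest intervals, and the 3 points of Fosl1 and of Jund lie close to 0.

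The promoters of members that moved apart are shown for comparison, with Fos, Fosb and Junb as genes that rose at 2 h and Jun as one that did not pass the test then. Each line gives the 140 bases from -150 to -11 relative to the RefSeq start, in the 5′ to 3′ direction of the gene. RefSeq windows on GRCm38.p6 were found for 6 of the 7 members, all but Fosl1. Capitals mark matches to the motifs searched.

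Fos promoter (chr12:85473740-85473879, plus strand): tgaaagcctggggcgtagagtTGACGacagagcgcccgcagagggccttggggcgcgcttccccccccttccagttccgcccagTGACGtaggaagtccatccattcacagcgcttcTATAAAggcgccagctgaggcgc

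Fosb promoter (chr7:19310056-19310195, minus strand): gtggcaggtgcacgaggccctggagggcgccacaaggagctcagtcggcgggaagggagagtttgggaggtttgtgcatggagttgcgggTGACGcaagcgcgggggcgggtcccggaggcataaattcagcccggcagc

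Junb promoter (chr8:84978759-84978898, minus strand): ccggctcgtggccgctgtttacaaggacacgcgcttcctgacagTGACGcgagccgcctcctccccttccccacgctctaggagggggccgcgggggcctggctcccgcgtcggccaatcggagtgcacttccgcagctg

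Jun promoter (chr4:95052233-95052372, minus strand): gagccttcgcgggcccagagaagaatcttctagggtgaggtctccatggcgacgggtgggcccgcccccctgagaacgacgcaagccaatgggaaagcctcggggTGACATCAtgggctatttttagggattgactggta

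The motifs were searched on both strands from 250 bases before to 50 bases after each start. TGACG, the short core of the cAMP response element that CREB binds, matched in the Fos window at -129 to -125 and -66 to -62, in Fosb at -60 to -56 and in Junb at -106 to -102. It matched in none of the Fosl2, Jun and Jund windows, and 20.8% of all 32851 windows held it. TGACATCA, a variant of the AP-1 site, matched in Jun at -45 to -38 and is held by 3.62% of windows. TATAAA matched in Fos at -33 to -28 and in Junb at 1 to 6, downstream of the printed stretch, and is held by 13.6% of windows. The RefSeq start of Junb lies upstream of its GENCODE start (84978718), and so does this match. The full element TGACGTCA, which contains TGACG, was in no member window and in 1.79% of all. TGANTCA, the AP-1 site itself, was in no member window and in 7.81% of all, and the CArG box bound by SRF was in none and in 1.63%. Sites more than 250 bases before a start lay outside the windows and were not searched, so a lack of matches holds for the windows only. Fosl2, which rose, and Jund, which was not called, both had no match. Their RefSeq starts differ from the GENCODE starts given above. The stretch from -150 to -11 was at 32136322 to 32136461 for Fosl2, inside the GENCODE gene. For Jund it was at 70697589 to 70697728, upstream of the GENCODE gene. Windows at the GENCODE starts were not searched. These matches describe letters in the windows and were not tested against the expression values.

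The composition of the family was then compared per length. The 4 Fos genes summed to 27.9 and 28.8 TPM before KCl, 470.5 and 561.1 TPM after 2 h, and 263.9 and 255.0 TPM after 6 h. The 3 Jun genes summed to 16.6 and 18.7 TPM before KCl, 23.1 and 29.5 TPM after 2 h, and 8.74 and 9.39 TPM after 6 h. In both families the 2 h libraries were the highest without overlap, but the Jun sum at 6 h lay under its 0 h libraries and the Fos sum did not. With 2 libraries per group an exact permutation test cannot reach 0.05, and these sums are given without a test.

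Fos mRNA per Jun mRNA therefore moved in 1 direction through the time course. The Fos sum divided by the Jun sum was 1.68 and 1.54 before KCl, 20.4 and 19.0 after 2 h, and 30.2 and 27.2 after 6 h, and the groups did not overlap. Fosl2 held 53.4% ± 1.2 (SD, n = 2) of the summed TPM of the 7 genes at 0 h, 25.1% ± 4.2 at 2 h and 33% ± 0.95 at 6 h. Fos held 3.56% ± 0.58 at 0 h, 55.4% ± 4.2 at 2 h and 60.0% ± 1.0 at 6 h. Jun went from a share of 33.7% ± 0.69 to 2.73% ± 0.025 and 2.10% ± 0.090. The share of Fosb was 14.2% ± 0.10 at 2 h and 2.99% ± 0.24 at 6 h. These are shares of mRNA, and protein was not measured.

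Within each family the order of the genes changed with time. Among Fos genes, Fosl2 TPM was 13.7 and 16.6 times that of Fos at 0 h, and 0.54 and 0.38 times at 2 h. At 6 h it was 0.53 and 0.57 times. Fosb TPM divided by Fos TPM was 0.27 and 0.24 at 2 h, and 0.052 and 0.048 at 6 h, so the 2 genes did not decline in proportion. Among Jun genes, Junb TPM divided by Jun TPM was 0.011 and 0.026 before KCl, 0.59 and 0.71 after 2 h, and 0.32 and 0.45 after 6 h. Jun stayed the highest Jun gene in all 6 libraries. Junb was the lowest Jun gene in both 0 h libraries, and lay above Jund in the 2 h and 6 h libraries, with 1.78 and 2.57 TPM against 1.42 and 1.11 TPM at 6 h.

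**Figure D3:**
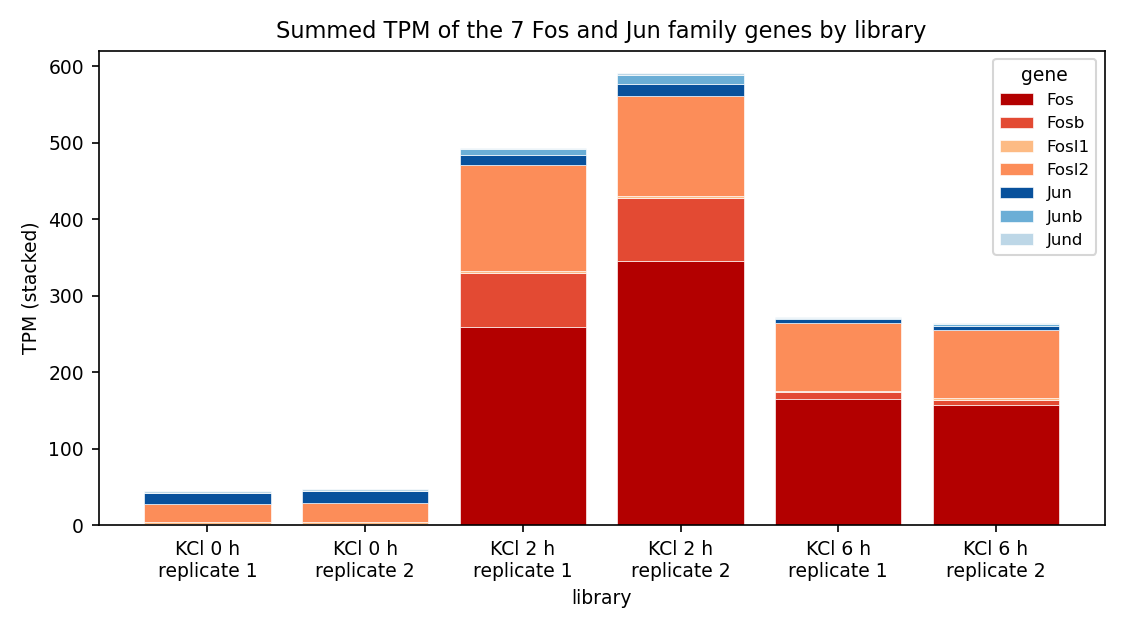
TPM of the 7 family genes stacked for each of the 6 libraries (x axis; y axis from 0), with Fos genes in red and orange and Jun genes in blue. The stacks reach 44.6 and 47.5 TPM before KCl, 493.7 and 590.6 TPM after 2 h, and 272.6 and 264.4 TPM after 6 h, and most of the stack at 2 h and 6 h is Fos and Fosl2.

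The effective length, a readout of which transcripts of a gene were counted, was tested for the 4 members whose mean expected count reached 100 (Fos, Fosb, Fosl2 and Jun). None of the 4 was called, where a call needed a limma adjusted p no higher than 0.05 and a log2 ratio of 0.2 or more in size. The background was 0.0712% of 11233 genes for 2 h against 0 h. It was 0.677% for 6 h against 0 h and 0.134% for 6 h against 2 h, and 0 of the members had an unadjusted limma p under 0.05. Fos, with 4 transcripts in the deposited table, had effective lengths of 1524 and 1639 bases before KCl, 1657 and 1499 bases after 2 h, and 1456 and 1523 bases after 6 h, and the groups overlapped. The other 3 have 1 transcript each there, so this readout could not show a change of transcript for them.

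AP-1 dimers can also hold other bZIP proteins, so a list of 16 ATF, JDP, BATF and MAF genes was read from the same fit. At 2 h, 3 of the 11 tested were higher (Maff, Atf3 and Atf4) and none was lower. At 6 h, 5 of 12 were higher, with Mafg and Mafk added, and none was lower. Over all genes tested, 3.62% were higher and 5.94% lower at 2 h, and 9.1% were higher and 10.2% lower at 6 h. The median log2 fold change of the list was 0.30 at 2 h and 0.77 at 6 h, against 0.015 and 0.00044 over all genes tested. Between 2 h and 6 h, 1 of 11 was higher, Atf7, and none was lower, beside 10.1% and 8.02% of all genes. The list median was then -0.037 against -0.0053.

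Maff, a small MAF protein without a transactivation domain, had normalized counts of 33.7 and 44.7 before KCl, 857.8 and 883.9 after 2 h, and 632.4 and 596.9 after 6 h. The groups did not overlap, and the log2 fold changes were 4.47 at 2 h (DESeq2 adjusted p = 9.067e-94) and 3.97 at 6 h. Atf3, a stress-induced repressor that pairs with Jun proteins, went from 19.5 and 43.8 to 161.8 and 188.2 at 2 h and 97.4 and 115.1 at 6 h. Its log2 fold change at 2 h was 2.46 ± 0.40 (SE; DESeq2 adjusted p = 1.2e-08).

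Atf4, the main factor of the integrated stress response, had normalized counts of 3178 and 3325 before KCl, 12185 and 14425 after 2 h, and 12090 and 11114 after 6 h. Its log2 fold change was 2.03 at 2 h and 1.84 at 6 h, where its DESeq2 adjusted p was 1.908e-43. Mafk, another small MAF, had a log2 fold change of 0.98 at 2 h, just under the threshold, and of 1.51 at 6 h (DESeq2 adjusted p = 4.785e-19). Mafg, named after its values were seen, had a log2 fold change of 1.04 at 6 h and of 0.79 with library totals, which ended its call. Atf7, a relative of ATF2 that binds cAMP response elements, had normalized counts of 402.4 and 338.1 at 2 h and 1054 and 945.4 at 6 h (log2 fold change 1.43; DESeq2 adjusted p = 2.621e-17).

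Of 19 genes that act upstream of Fos and Jun genes or proteins, 1 was higher at 2 h, Srf, and none was lower, beside 3.62% and 5.94% of all genes. Srf, the serum response factor, had normalized counts of 743.9 and 777.0 before KCl, 1926 and 2013 after 2 h, and 1928 and 1982 after 6 h. Its 2 h and 6 h libraries lay together, apart from those at 0 h, with log2 fold changes of 1.37 (DESeq2 adjusted p = 6.722e-32) and 1.36. At 6 h, 5 of the 19 were higher and 2 were lower, beside 9.1% and 10.2% of all genes, with a list median of 0.34 against 0.00044 over all genes tested. The higher genes were Elk4 (1.73), Srf, Rps6ka3 (1.27), Elk3 (1.12) and Creb1 (1.00) on the log2 fold scale, and the lower ones were Rps6ka5 (-1.27) and Rps6ka4 (-1.09).

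Elk4 and Elk3 are ternary complex factors that bind with SRF, and the Rps6ka genes encode kinases of the RSK and MSK type. Elk3, Creb1 at this time and Rps6ka4 are named after their values were seen. With library totals Elk3 and Creb1 were not called (0.87 and 0.76), and after the GC correction neither Creb1 (0.74) nor Rps6ka4 (-0.96) was called. Without replicate 2 of the 6 h group 3 regulators were higher, and without replicate 2 of the 0 h group 1 was lower. Between 2 h and 6 h, 3 of the 19 were higher (Creb1, Map2k7 and Elk4) and none was lower, beside 10.1% and 8.02% of all genes. Creb1, the factor bound to cAMP response elements, had normalized counts of 2122 and 1039 at 2 h and 4310 and 4442 at 6 h, so its 2 h replicates differed from each other. Map2k7, a kinase that activates JNK, had 552.2 and 669.9 at 2 h and 1576 and 1508 at 6 h (log2 fold change 1.34; DESeq2 adjusted p = 1.815e-16). The JNK genes Mapk8, Mapk9 and Mapk10, which encode the kinases of Jun protein and are named after their values were seen, were called in no comparison, with log2 fold changes of 0.44, 0.30 and 0.57 at 6 h against 0 h.

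Of 9 genes for decay of AP-1 mRNA or protein, none was called at 2 h by DESeq2 or by edgeR, although 3 had an unadjusted DESeq2 p under 0.05. Over all genes tested by DESeq2, 3.62% were higher and 5.94% lower at 2 h. At 6 h, 3 of the 9 were higher and none was lower, beside 9.1% and 10.2% of all genes, with a list median of 0.72 against 0.00044 over all genes tested. Fbxw7, the substrate receptor of a ubiquitin ligase for Jun, had normalized counts of 2474 and 2529 at 0 h and 5265 and 5433 at 6 h (log2 fold change 1.10; DESeq2 adjusted p = 1.081e-22). Cop1, part of another ubiquitin ligase for Jun, went from 2354 and 2280 to 5075 and 4559 (1.06; DESeq2 adjusted p = 1.566e-13), with non-whole counts that show reads shared with other genes.

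Both calls were near the threshold: with library totals the log2 fold changes were 0.85 for Fbxw7 and 0.81 for Cop1, and 1 gene of the list stayed called. After the GC correction Cop1 was at 0.71 and not called, whereas Fbxw7 was at 1.04 and called. When replicate 1 of the 6 h group was left out, 1 gene of the list was called. Zfp36, which encodes an mRNA decay factor and is named after its values were seen, had normalized counts of 16.9 and 14.3 at 0 h and 46.0 and 43.0 at 6 h (log2 fold change 1.51 ± 0.52, SE; DESeq2 adjusted p = 0.00952). Itch, a ubiquitin ligase for Jun and Junb proteins, was higher at 6 h than at 2 h, with 2957 and 2837 against 1208 and 879.8 (1.47; DESeq2 adjusted p = 5.559e-16). At 0 h it was at 1715 and 1635, between the other times. Itch was the only gene of the list called between 2 h and 6 h, beside 10.1% of all genes higher and 8.02% lower.

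Among 12 genes described elsewhere as AP-1 targets, 10 were tested, and 1 was higher at 2 h and 2 at 6 h, with none lower. Over all genes tested, 3.62% and 9.1% were higher at these times and 5.94% and 10.2% were lower, so the counts are not a result about the list. Scg2, the precursor of secretogranin II and its neuropeptides, had normalized counts of 2302 and 2264 before KCl, 9185 and 9896 after 2 h, and 17231 and 17269 after 6 h. Its groups did not overlap and it was highest at 6 h, with log2 fold changes of 2.06 at 2 h and 2.92 at 6 h (DESeq2 adjusted p = 6.672e-194). Ccnd1, a cyclin of the G1 phase, had a log2 fold change of 1.04 at 6 h, and of 0.79 with library totals, which ended its call. Without replicate 2 of the 6 h group 1 target was called at 6 h. The counts of Ccnd1 were not whole in any of the 6 libraries. The list median was 0.25 at 2 h and 0.54 at 6 h, against 0.015 and 0.00044 over all genes tested, and none of the 10 was called by DESeq2 between 2 h and 6 h, with a median of 0.48 against -0.0053. By edgeR 1 was called then, and 5 of the 10 had an unadjusted DESeq2 p under 0.05. Over all genes tested by DESeq2, 10.1% were higher and 8.02% lower between 2 h and 6 h.

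To place the members among all genes, the nearest genes by pattern were found for the 5 members called in any comparison. The measure was the Euclidean distance between the pairs of log2 fold changes (2 h and 6 h, each against 0 h), from all 6 libraries and over the 11179 other genes whose mean normalized count reached 100. Nearest to Fos was Npas4, a transcription factor of active neurons, at a distance of 0.27. Its log2 fold changes were 7.64 and 6.47, and its normalized counts were 47.0 and 37.9 before KCl, 7467 and 9480 after 2 h, and 3899 and 3614 after 6 h. The next genes were farther off: Col10a1, a collagen, at 1.59 and Nr4a1, an orphan nuclear receptor, at 2.16. Col10a1 lies within the span of Nt5dc1 on the other strand and had 1 library at 0, so its counts are uncertain.

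The same 3 genes were the closest to Fosb, at distances of 2.27, 3.53 and 3.88, and Fos itself was 2.21 away. These distances are uncertain. The log2 fold changes of Fosb against 0 h had an SE of 1.35 at both times and rested on 10 and 0 expected counts at 0 h. They were smaller without the 0 h library that held no count, and distances were not computed from that fit. Junb was nearest to the nuclear receptor gene Nr4a2 (0.42), followed by Maff (1.18) and Nr4a3 (1.35). Nearest to Fosl2 were the salt-inducible kinase Sik1 (0.12), the receptor Gpr19 (0.21) and Arid5a (0.28). Jun was nearest to Pgap2 (0.016), Alg1 (0.021) and Nfu1 (0.027). Alg1 had non-whole counts in all 6 libraries.

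**Figure D4:**
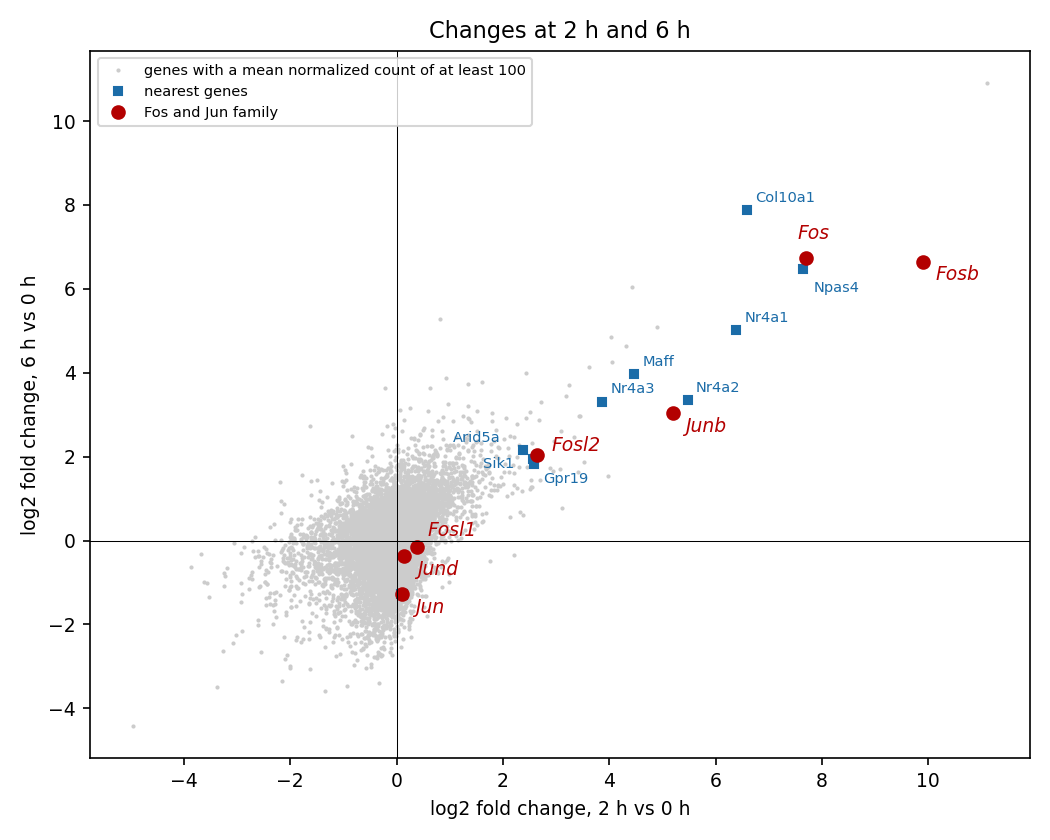
DESeq2 log2 fold change at 2 h (x axis) and at 6 h (y axis), both against the same 0 h libraries. Grey points are genes whose mean normalized count reached 100, of which 11179 lay outside the family. Blue squares are the nearest genes of called members, and red points are the 7 family genes. Fos lies beside Npas4, Fosb has the largest change at 2 h in the family, and Jun is the lowest member at 6 h.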

How the data were processed

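RNA-seq of 6 libraries was used. Per the labels and the study, poly(A) RNA was made into stranded paired-end libraries; the submitters' processing notes name RSEM 1.3.0, Bowtie2 2.2.9 and the mm10 build. The annotation release and the strand setting of RSEM were not given in the sources used here. RSEM shares reads among genes and transcripts, and the deposited expected counts can thus be non-whole; they are not normalized. The deposited TPM values are corrected for transcript length and scaled per library by the authors. The deposited effective length is a mean over a gene's transcripts weighted by abundance. The deposited FPKM values were not used.

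Genes were matched to symbols and positions through GENCODE M21 (GRCm38), which may differ from the authors' release. Expected counts were rounded, and 22515 genes with a count were fitted with DESeq2 1.42.0 in R 4.3.3, with all 6 libraries, the group as the only term, median-of-ratios size factors, unshrunken fold changes and Benjamini-Hochberg adjustment after independent filtering. Calls required an adjusted p no higher than 0.05 with a log2 fold change above 1 in size, as in the study's methods. Effective lengths were tested with limma 3.58.1. Alternatives were edgeR 4.0.16, other scalings, a GC correction, filters, a replicate block and leaving out each library. Counts carry no molecular identifiers, so precision from counts covers counting error only, and p-values measure the spread between these libraries.

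The members and lists were chosen with earlier results of these data known. Beside the members, the text names up to 4 called genes per list and comparison, by absolute log2 fold change, with a mean normalized count of 50 or more, and the 3 genes nearest to each called member. Scripts were tested on simulated data. Replicate numbers share no stated culture, so they were not taken as pairs. Between libraries of the same number, deviations from the group means were correlated over 12290 genes. The correlation was 0.28 for 0 h and 2 h, -0.0023 for 0 h and 6 h, and 0.15 for 2 h and 6 h. After the GC correction it was 0.114, -0.0581 and 0.0483.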

Additional observations from a re-analysis of the deposited data

Results flagged for a closer look

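For 3 members the effect of KCl, as a log2 fold change against the same 0 h libraries, differed between 2 h and 6 h by a direct test (DESeq2, 6 h vs 2 h, called). The difference was -3.26 for Fosb, which lost its call when any 1 of the 2 h or 6 h libraries was left out (DESeq2 adjusted p 0.215 to 0.308), -1.39 for Jun and -2.15 for Junb. Fosb and Junb were above 0 h at both times, and Jun was below it at 6 h. Fos and Fosl2 passed the p threshold of the same test too (DESeq2 adjusted p = 1.174e-11 and 7.564e-09). Their changes were under 2-fold, so they were not called.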

How the results depend on the processing

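The counts of 4, 5 and 3 called members kept within 1.5 times under every alternative but 1: a test against a fold change of 2 called no member at 6 h vs 2 h (adjusted p 0.976 for Fosb, 0.0710 for Junb and 0.355 for Jun; 0.841 for Jun at 6 h vs 0 h), and called 403, 860 and 540 genes in all for 2 h against 0 h, 6 h against 0 h and 6 h against 2 h, where the main test called 1609, 3333 and 2970. Library totals as size factors moved the median log2 fold change over 14668 genes to -0.156, -0.251 and -0.0752 in these comparisons, from 0.011, -0.0044 and 0.0045, and the split of calls to 499 higher and 1332 lower at 2 h (from 609 and 1000) and to 1032 and 2564 at 6 h vs 0 h (from 1572 and 1761).

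No call of a member reversed. Among changes that were not called, the sign turned for Jun at 2 h (-0.055 with library totals; -0.019 to 0.20 over the fits that left out 1 library), for Jund at 2 h (-0.022 with library totals, -0.085 with the GC correction, -0.088 with the GC correction and replicate block; -0.079 to 0.31 with 1 library left out) and for Fosl1 at 6 h (-0.32 to 0.041 with 1 library left out). The share of the 2 h level left for Fos at 6 h was 47.2% to 56.2% when libraries were left out. Summed from length-corrected normalized counts in place of TPM, the Fos genes came to 26.0 at 0 h and 270.7 at 6 h and the Jun genes to 16.2 at 0 h, from 28.4, 259.4 and 17.7. The cause was not tested.

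With the replicate block, the calls came to 1515, 3169 and 2866 genes, and Fosb at 6 h vs 2 h was not called (-3.34, DESeq2 adjusted p = 0.0606; 0.0736 with the GC correction). The block changed no other call of a member. Each group holds 2 libraries, so the intervals of members with few counts at 0 h (Fosb and Junb) are wide. The alternatives for the gene lists were chosen after seeing the data. In these, the test against a fold change of 2 called 3 dimer partners, 2 regulators, 0 decay genes and 1 target at 6 h vs 0 h, from 5, 7, 3 and 2. Without replicate 1 of the 2 h group, 2 partners in place of 1 were called at 6 h vs 2 h, and 2 regulators in place of 1 at 2 h vs 0 h.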

Other observations

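Among the neuron markers, Gad1 and Gad2, the genes of the GABA-synthesizing enzymes, rose by 6 h of KCl. Gad1 had normalized counts of 6059 and 5971 before KCl, 9584 and 8918 after 2 h, and 16868 and 15201 after 6 h (log2 fold change 1.41 at 6 h; DESeq2 adjusted p = 1.292e-36). Gad2 had a log2 fold change of 1.36 at 6 h. Tubb3, a neuronal tubulin, had normalized counts of 36418 and 36743 at 0 h and 16727 and 19620 at 6 h, a log2 fold change of -1.01, which was -0.87 and not called after the GC correction. Among the glial, microglial and vascular markers, Pecam1 and P2ry12, named after their values were seen, were called higher at 6 h, at under 1 TPM in both 6 h libraries.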
